A study of Mus musculus with 30 samples.

Results

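Hox genes encode homeodomain transcription factors that sit in 4 clusters on different chromosomes. Described here are the 10 HoxA and HoxB genes Hoxa5, Hoxa7, Hoxa9, Hoxa10, Hoxb2, Hoxb3, Hoxb4, Hoxb5, Hoxb6 and Hoxb8, taken by symbol, in mouse haematopoietic stem cells (HSCs) sorted from bone marrow. They are 10 of the 39 Hox genes and of the 35727 genes in the deposited table. Of the 10, 4 lie in the HoxA cluster on chromosome 6 and 6 in the HoxB cluster on chromosome 11.

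The study asked how loss of the interleukin-1 receptor (IL1R1) or absence of gut microbes bears on the ageing of HSCs. It comprised 30 RNA-seq libraries in 8 groups, each made from 4000 to 5000 sorted cells. Wild-type (WT) mice gave 4 libraries at 2 months, 5 at 1 year and 4 at 2 years. Mice labelled IL1R1 KO (KO) gave 3, 4 and 5 libraries at those ages. Bowel germ-free mice (GF) gave 3 libraries at 2 months and 2 at 1 year, with no 2-year group. The sources used here do not give the strain, the knockout allele, the sort gate or how mice were kept germ-free. Whether each replicate is a different animal is not labelled, and every p-value then reflects the spread among the libraries alone, which may be technical. In sorted bulk samples, fewer cells of a type and less RNA per cell cannot be told apart.

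In vertebrates, Hox proteins bind short AT-rich DNA motifs through the homeodomain and gain specificity from partners of the TALE class, the Pbx and Meis proteins. In blood, HoxA and HoxB genes are most active in stem and early progenitor cells and are switched down as cells mature, and their expression is maintained by the MLL (Kmt2a) complex. Hoxa9 is required for normal HSC function and is a driver of acute leukaemia. Hoxb4 expands HSCs when overexpressed, and a Hoxb5 reporter is used to mark long-term HSCs.

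The homeobox, the exon segment that encodes the DNA-binding homeodomain, is shown for Hoxa5 and Hoxb6, a HoxA and a HoxB member with an adjusted p under the threshold in at least 1 comparison below. Coordinates are on GRCm38 with GENCODE M21 models, and each homeobox lay within 1 exon. The Hoxa5 homeobox is at chr6:52202632-52202811 on the minus strand and that of Hoxb6 at chr11:96300689-96300868 on the plus strand. Capitals mark the 18 bases that encode the core of the third helix, which contacts DNA.
Hoxa5: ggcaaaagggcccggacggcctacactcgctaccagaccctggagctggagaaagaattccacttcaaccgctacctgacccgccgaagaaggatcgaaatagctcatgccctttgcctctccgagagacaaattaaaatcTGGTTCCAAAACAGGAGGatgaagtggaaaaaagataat
Hoxb6: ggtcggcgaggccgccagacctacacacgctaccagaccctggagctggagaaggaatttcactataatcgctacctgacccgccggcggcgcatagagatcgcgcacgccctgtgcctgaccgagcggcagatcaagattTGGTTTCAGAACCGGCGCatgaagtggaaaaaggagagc
Across the 180 bases of the homeobox, the 45 pairs of members were 57.8% to 83.9% identical, with a median of 66.1%. Over whole transcripts, the longest exact stretch that a member shared with another Hox gene was 52 bases, between Hoxb4 and Hoxa6. For Hoxb6 it was 37 bases, shared with Hoxb7, and for Hoxa9 31 bases. No member shared a stretch of 100 bases, the read length, with another Hox gene. Stretches shared with genes other than Hox genes were not searched.

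Smart-seq2 does not mark strand, so reads from sequence shared with an antisense gene cannot be told apart from those of a member. The overlaps given here are of whole gene spans, and overlap of exons was not measured. Hoxb5 (chr11:96303336-96306121) and Hoxb6 (chr11:96292476-96301569) both overlap the antisense gene Hoxb5os. Hoxb2 (chr11:96350525-96354012) and Hoxb3 (chr11:96323326-96347930) overlap Hoxb3os, and Hoxb3 also overlaps the antisense gene Gm11536. Hoxa5 (chr6:52201754-52204587) overlaps Hoxaas3 on the other strand, and the gene Gm28308 and long Hoxa3 models on its own strand. Hoxa7 (chr6:52214491-52221854) overlaps Hoxaas3. Hoxa9 (chr6:52223100-52231089) hosts the microRNA gene Mir196b, while Hoxa10 (chr6:52231197-52240854), Hoxb4 (chr11:96318267-96321638) and Hoxb8 (chr11:96281905-96285315) overlap no other annotated gene. Of 11 listed noncoding transcripts of the clusters, 0 were found by symbol in the table, so they were not analysed here.

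Library totals of normalized counts were 27.5 to 30.7 M, with an estimated depth of 15.6 to 56.3 M reads. The 9 HSC markers were detected in all 8 groups, with summed levels between 72689 and 106631 normalized counts per library. In WT this sum was 78057 to 79523 at 2 months, 98405 to 106631 at 1 year and 83216 to 100815 at 2 years, so every older WT library lay above every young one. Il1r1 did not check the genotype label: it was at 186 to 409 normalized counts in the KO libraries and 137 to 383 in the WT libraries, and a whole-gene value cannot reveal a partial deletion. Each direction for KO therefore rests on the label. In 6 of the 10 libraries of 2-month mice, 2 from each of WT, KO and GF, Mpo, a neutrophil progenitor enzyme, lay between 23626 and 73276, against 4.33 to 3075 in the other 4. For the members, other Hox genes and cofactors named below, differences without those 6 libraries are given where a call was gained or lost. Leaving those 6 out keeps replicate 2 as the only young library of KO and of GF. Mpo also passed 10000 in WT 2 years replicates 1 (11719) and 4 (16541) and KO 1 year replicate 2 (12930). These older libraries were kept in those fits, and the 6 libraries high in Mpo named below are the 2-month ones.

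HSCs expressed the HoxA and HoxB clusters and little of the others. Of the Hox genes in the table, 9 of 11 HoxA genes, 9 of 10 HoxB genes, 3 of 9 HoxC genes and 0 of 9 HoxD genes reached 10 normalized counts in at least 3 libraries, and all 10 members did. The highest value of any HoxC gene in a library was 47.9 and of any HoxD gene 22.9, against 3971 for Hoxa9. Hoxb8 passed by a small margin, at 10 or more in 12 libraries and at 0 in 2.

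Per kilobase of exon, the 4 HoxA members were the highest of all Hox genes. Hoxa9 was the highest, with a mean over the 30 libraries of 556 normalized counts per kilobase, followed by Hoxa5 at 423, Hoxa7 at 366 and Hoxa10 at 301. Next came Hoxb2 at 187 and Hoxb5 at 143, then Hoxb6 at 82.6. Hoxb3 (29.2), Hoxb4 (26.9) and Hoxb8 (4.08) were lower than 5 Hox genes outside the 10, which were Hoxa6 (96.2), Hoxa3, Hoxa2 (40.3), Hoxb9 (37.8) and Hoxb7 (34.9). With the length of the longest transcript in place of all exons, Hoxa9 stayed highest and Hoxa7, at 518, passed Hoxa5, at 423. The order is a description of means, and lengths of the transcripts in use were not measured.

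**Figure D1:**
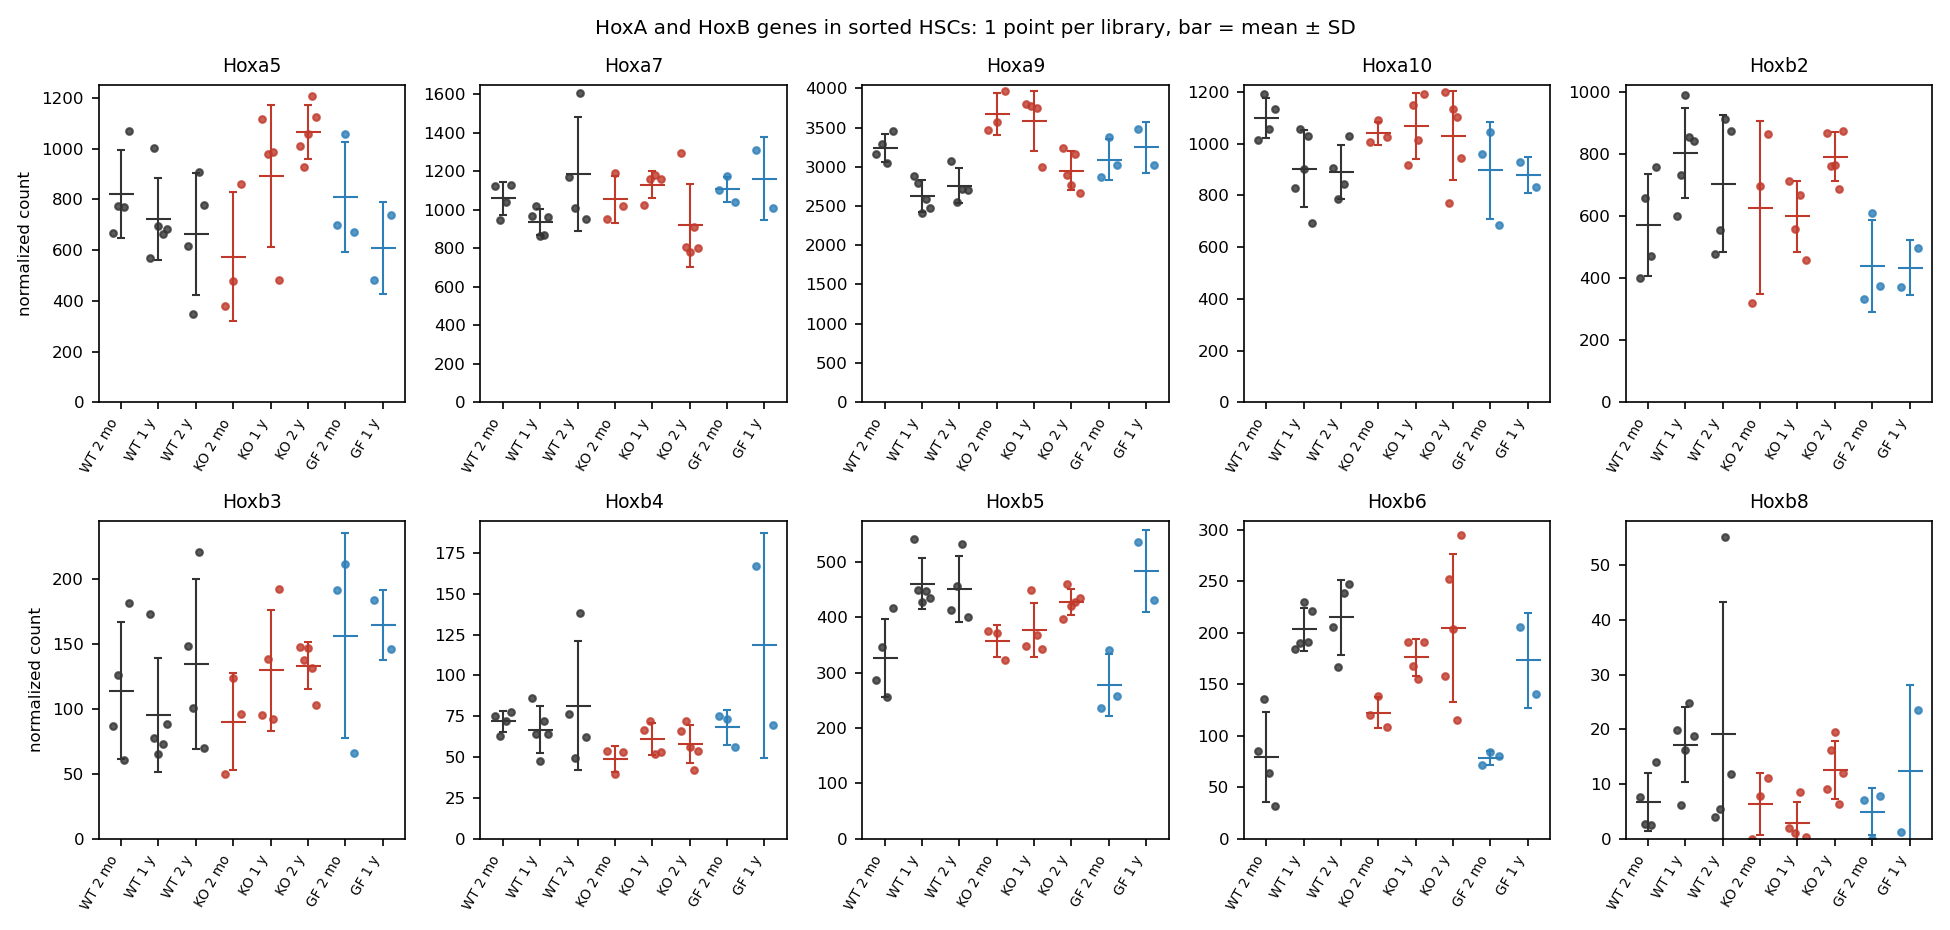
Normalized count (vertical axis, linear from 0, a different range in each panel) of the 10 members in the 30 libraries, by group (horizontal axis; mo, months; y, years). Points are libraries and bars are the group mean ± SD, with bars that would fall below 0 ending at the axis. Hoxb6 is the member whose WT libraries at 1 and 2 years all lie above those at 2 months.

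A gene was called where its limma p, adjusted over the 16958 tested genes, was under 0.05. Among the members, Hoxb6, which expands myeloid progenitors when overexpressed, had the largest called change with age. In WT libraries at 2 months it was at 85.6, 135, 64.2 and 32.1 normalized counts. At 1 year it was at 184, 190, 230, 191 and 221, and at 2 years at 206, 167, 239 and 248. Every older WT library was above every young one, as for 6.89% of all tested genes at 1 year and 5.31% at 2 years, and the 2 older groups overlapped. Group means were 79.3 ± 43.3 (SD, n = 4), 203 ± 20.5 (n = 5) and 215 ± 36.8 (n = 4). On the log2(normalized count + 1) scale used for all tests, which understates changes of low genes, the difference to 2 months was 1.52 ± 0.29 (SE; 2.86-fold; limma adjusted p = 0.000803) at 1 year. At 2 years it was 1.59 ± 0.31 (3.00-fold; limma adjusted p = 0.00138). The 1-year call held in 19 of 19 other settings, and the 2-year call in 17 of 18, missing with a fit of only those groups (adjusted p = 0.0786).

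The KO and GF libraries gave Hoxb6 values that lay the same way and did not pass. In KO it was at 120, 138 and 109 at 2 months, 191, 167, 155 and 191 at 1 year, and 158, 252, 203, 115 and 295 at 2 years. The 1-year KO libraries lay above the young ones, as did 6.06% of all tested genes, whereas the 2-year KO libraries overlapped them. The differences were 0.52 ± 0.33 at 1 year (limma adjusted p = 0.511) and 0.67 ± 0.32 at 2 years (adjusted p = 0.222). In GF it was at 71.3, 84.1 and 79.9 at 2 months and 206 and 141 at 1 year, without overlap, as for 13.9% of tested genes on the higher side, and the difference was 1.11 ± 0.40 (adjusted p = 0.150). Ordered by mean, the 8 groups ran from GF 2 months (78.4) and WT 2 months (79.3) through KO 2 months (122) to GF 1 year (173), KO 1 year (176), WT 1 year (203), KO 2 years (205) and WT 2 years (215). Among the 7 steps of that order, neighbours were without overlap only between KO 2 months and GF 1 year.

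The change of Hoxb6 with age was not shown to differ between genotypes. KO minus WT, the difference of the age changes was -0.99 ± 0.44 to 1 year (95% interval -1.90 to -0.09; limma adjusted p = 0.438) and -0.92 ± 0.44 to 2 years (-1.82 to -0.01; adjusted p = 0.509). GF minus WT it was -0.41 ± 0.49 to 1 year (-1.42 to 0.60; adjusted p = 0.825). The 2-month libraries enter every one of these contrasts, and at that age Hoxb6 was 0.79 ± 0.33 higher in KO than in WT on the log2 scale (adjusted p = 0.428).

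Hoxb5, the long-term HSC marker, was at 287, 345, 255 and 416 in WT at 2 months. It was at 542, 450, 428, 448 and 435 at 1 year and at 414, 456, 533 and 400 at 2 years. All 5 libraries at 1 year lay above the young ones, as for 6.89% of all tested genes. The 2-year libraries overlapped the young ones through 1 young library, replicate 4. The means were 326 ± 70.6 (SD, n = 4), 460 ± 46.4 (n = 5) and 451 ± 59.7 (n = 4). Hoxb5 rose by 0.52 ± 0.16 at 1 year (1.43-fold; limma adjusted p = 0.0298), and at 2 years the difference was 0.48 ± 0.16 (adjusted p = 0.0844). The 1-year call was lost without WT 2 months replicate 1 (adjusted p = 0.0843) or 3 (0.116) or WT 1 year replicate 1 (0.0755). Without WT 2 months replicate 4, the 2-year difference passed (0.61 ± 0.17; adjusted p = 0.0333), as it did without the 6 libraries high in Mpo (0.72 ± 0.18; adjusted p = 0.0208).

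In GF, Hoxb5 was at 235, 340 and 258 at 2 months and at 535 and 431 at 1 year. Again the groups did not overlap, as for 13.9% of all tested genes on the higher side. Hoxb5 rose by 0.81 ± 0.21 (1.75-fold; limma adjusted p = 0.0400). That call rested on few libraries and was lost on leaving out GF 2 months replicate 1 (adjusted p = 0.127) or 3 (0.109), GF 1 year replicate 1 (0.276) or GF 1 year replicate 2 (0.0571). Without the 6 libraries high in Mpo it was 0.50 ± 0.25 (adjusted p = 0.365), with 1 young GF library left. In KO, Hoxb5 was at 374, 372 and 323 at 2 months, 349, 449, 368 and 343 at 1 year, and 396, 461, 420, 427 and 434 at 2 years. The 2-year KO libraries lay above the young ones, as did 8.83% of tested genes, with a difference of 0.26 ± 0.17 (95% interval -0.08 to 0.61; adjusted p = 0.409). Hoxb5 varied little between libraries of a group: its residual SD of 0.19 (log2) was smaller than that of all but 1.83% of genes of like level.

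The other HoxB members gave no call with age. Hoxb2, a hindbrain patterning gene also active in stem cells, was at 401, 658, 472 and 756 in WT at 2 months and at 600, 733, 988, 854 and 842 at 1 year. These groups overlapped, and the difference was 0.52 ± 0.25 (limma adjusted p = 0.211). Without the 6 libraries high in Mpo it was 0.86 ± 0.24 and passed (adjusted p = 0.0305). At 2 years Hoxb2 was at 476, 555, 911 and 872 in WT, within the combined range of the younger groups. Hoxb3 lay between 49.7 and 220 over the 30 libraries and Hoxb4 between 39.8 and 167, and the groups of both overlapped at every age step within WT, KO and GF. Hoxb4 differed with age by between -0.12 and 0.67 on the log2 scale against 2 months, with the highest value set by GF 1 year replicate 1 at 167 beside replicate 2 at 69.8. Hoxb8, which blocks differentiation of myeloid progenitors when overexpressed, was at 0 to 24.8 in all libraries but WT 2 years replicate 3, at 55.1, and its differences from 2 months, from -0.68 to 1.42, had standard errors of 0.86 to 1.18.

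Among the HoxA members, Hoxa9 fell in WT at 1 year. It was at 3168, 3286, 3044 and 3457 at 2 months, 2889, 2793, 2415, 2586 and 2471 at 1 year and 3071, 2550, 2715 and 2700 at 2 years. All 1-year libraries lay below the young ones, as for 5.62% of tested genes, and 1 library at 2 years reached into the young range. The means were 3239 ± 176 (SD, n = 4), 2631 ± 204 (n = 5) and 2759 ± 221 (n = 4). Hoxa9 fell by 0.30 ± 0.09 on the log2 scale at 1 year (0.811-fold; limma adjusted p = 0.0261), and at 2 years the difference was -0.23 ± 0.09 (adjusted p = 0.163). The 1-year call was lost without WT 2 months replicate 2 (adjusted p = 0.0629) or 4 (0.0920) or WT 1 year replicate 3 (0.0703), 4 (0.0518) or 5 (0.0676). WT 2 months replicates 2 and 4 are the 2-month WT libraries high in Mpo. Without all 6 such 2-month libraries the difference was -0.24 ± 0.11 (limma adjusted p = 0.251).

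In the KO libraries Hoxa9 was at 3470, 3570 and 3971 at 2 months, 3803, 3771, 3750 and 3003 at 1 year, and 3240, 2898, 2769, 3166 and 2672 at 2 years. All 2-year values lay below the 2-month values, as for 7.44% of tested genes, and the 1-year values fell on both sides. Hoxa9 fell by 0.32 ± 0.10 at 2 years against 2 months (0.803-fold; limma adjusted p = 0.0386), and at 1 year the difference was -0.04 ± 0.10 (adjusted p = 0.912). The 2-year call was lost without KO 2 months replicate 1 (adjusted p = 0.0657), 2 (0.0727) or 3 (0.176) or KO 2 years replicate 2 (0.0673), 3 (0.0837) or 5 (0.0946). Without the 6 libraries high in Mpo the 2-year difference was -0.28 ± 0.15, with replicate 2 as the only young KO library. In GF Hoxa9 was at 2865, 3378 and 3028 at 2 months and at 3478 and 3018 at 1 year, with a difference of 0.07 ± 0.12 (adjusted p = 0.845). Against WT, the age change to 1 year differed by 0.37 ± 0.15 in GF (95% interval 0.07 to 0.68; adjusted p = 0.381).

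Hoxa5, which is known to tilt progenitors between myeloid and erythroid fates, rose in the libraries labelled KO at 2 years. In KO it was at 379, 480 and 861 at 2 months, 1119, 978, 989 and 481 at 1 year, and 1012, 928, 1057, 1209 and 1125 at 2 years. Every 2-year library was above every young one, as for 8.83% of all tested genes, and 1 library at 1 year was in the young range. The rise at 2 years was 0.98 ± 0.29 (1.97-fold; limma adjusted p = 0.0310), and the difference at 1 year was 0.66 ± 0.30 (adjusted p = 0.303). The 2-year call was lost without KO 2 months replicate 1 (adjusted p = 0.233) or 2 (0.112) or KO 2 years replicate 3 (0.0501), 4 (0.0616) or 5 (0.0571). Without the 6 libraries high in Mpo the 2-year difference was 1.14 ± 0.40, with replicate 2 as the only young KO library. With KO 1 year replicate 1, whose age label reads 2 months against a title of 1 year, placed at 2 months, the difference was 0.71 ± 0.28 (adjusted p = 0.164).

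In WT, Hoxa5 was at 668, 774, 770 and 1069 at 2 months, 570, 1001, 696, 663 and 683 at 1 year and 616, 348, 909 and 778 at 2 years. No WT difference passed and the groups overlapped, with differences to 2 months of -0.19 ± 0.26 at 1 year and -0.37 ± 0.28 at 2 years (limma adjusted p = 0.532 for the latter). In GF it was at 699, 1059 and 673 at 2 months and 482 and 738 at 1 year. The test of the age change to 2 years in KO minus WT gave 1.35 ± 0.40 (95% interval 0.53 to 2.16) with an unadjusted p of 0.00207 in limma and an adjusted p of 0.139, so the difference between genotypes did not pass. Hoxa5 also varied more between libraries of a group than most genes: its residual SD of 0.42 exceeded that of 92.5% of genes of like level.

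Hoxa7 and Hoxa10, co-expressed with Hoxa9 in MLL-rearranged leukaemia, gave no call with age. Hoxa7 lay between 781 and 1606 over the 30 libraries and Hoxa10 between 686 and 1199. Hoxa10 was at 1016, 1194, 1058 and 1133 in WT at 2 months, 830, 1058, 904, 1029 and 694 at 1 year and 908, 785, 843 and 1030 at 2 years. The older WT groups each reached into the young range, and the difference was -0.30 ± 0.14 at 1 year (limma adjusted p = 0.205). In KO it differed from 2 months by 0.03 at 1 year and -0.03 at 2 years. Hoxa7 differed from 2 months by between -0.22 and 0.13 over the age comparisons of WT, KO and GF.

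**Figure D2:**
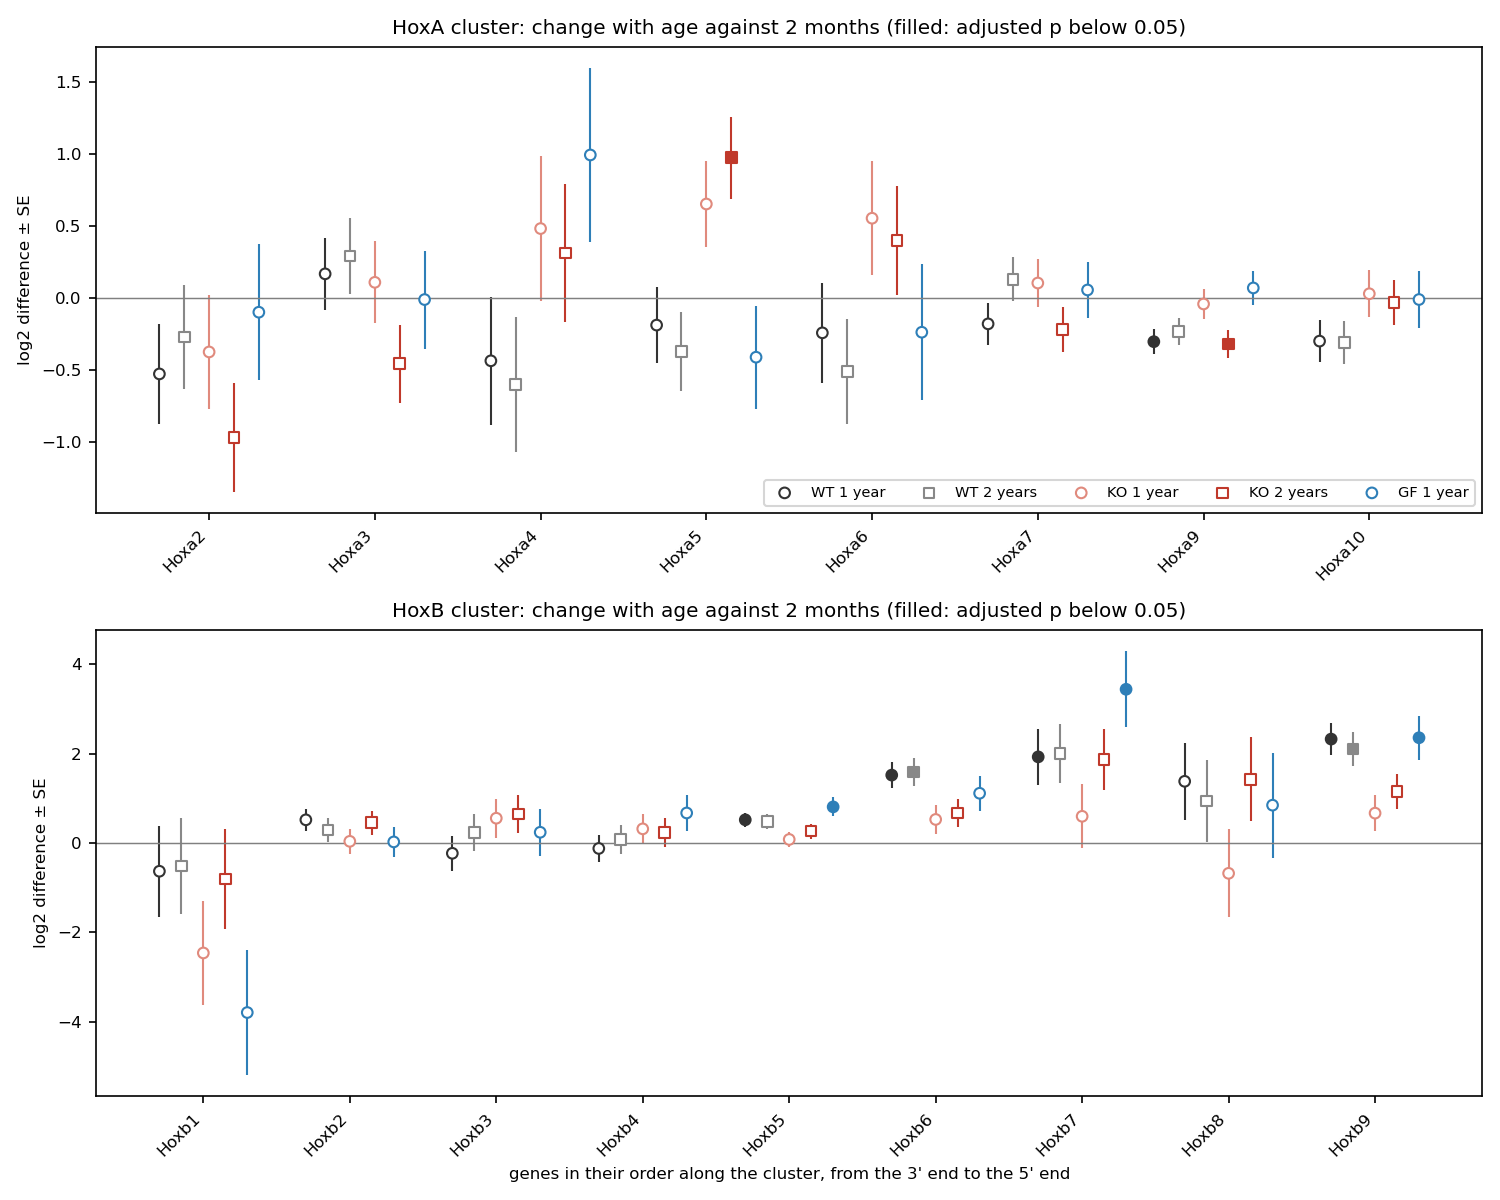
Difference from 2 months (log2 of normalized count + 1, ± SE from limma) of tested HoxA genes (top) and HoxB genes (bottom), in WT, KO and GF. Genes stand in their order along the cluster, and filled symbols have an adjusted p below 0.05. The WT points of Hoxb2 and of Hoxb5 to Hoxb9 lie above 0, and those of Hoxa5, Hoxa9 and Hoxa10 lie below it.

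Counted together, 3 of the 10 members passed in WT at 1 year against 2 months, where 10.7% of the 16958 tested genes were called. The count was 1 of 10 in WT at 2 years, against 5.55% of all genes. In KO it was 2 of 10 at 2 years, against 8.02%, and in GF 1 of 10 at 1 year, against 2.1%. No member passed in KO at 1 year, where 2% of genes were called and 1 member had an unadjusted p under 0.05 in limma, the only tool used. Between 1 and 2 years, no member passed in WT (0.0118% of genes called, 1 member under 0.05 unadjusted) or KO (0.177%, 3 members). The median difference of the members was -0.15 in WT at 1 year and 0.18 at 2 years, beside 0.01 for all tested genes at both ages. In KO at 2 years it was 0.36 and in GF at 1 year 0.15, beside 0.00 and 0.01 for all genes. The age comparisons within a genotype share their 2-month libraries.

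KO against WT at matched ages, Hoxa9 was the member that passed. At 1 year all libraries labelled KO (3003 to 3803) lay above all WT libraries (2415 to 2889), as for 2.91% of tested genes, with means of 3582 ± 386 (SD, n = 4) and 2631 ± 204 (n = 5). The difference was 0.44 ± 0.09 (1.36-fold; limma adjusted p = 0.00732), and it was called in 19 of 19 other settings, over which it ran from 0.40 to 0.52. These include the placement of KO 1 year replicate 1 at 2 months. In that comparison 1 of 10 members and 1.3% of all tested genes were called. At 2 months the KO libraries (3470 to 3971) also lay above the WT libraries (3044 to 3457), as did 3.81% of tested genes, with a difference of 0.18 ± 0.10 that did not pass. At 2 years the groups overlapped.

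None of the other 9 members passed between KO and WT at 1 year. Hoxa7 was higher in KO without overlap there, as were 2.91% of tested genes (0.27 ± 0.14; limma adjusted p = 0.463). At 2 months 0 of 10 members were called in limma, where 0.407% of genes were, and 1 member, Hoxb6, had an unadjusted p under 0.05. Hoxb4 was lower in the 3 KO libraries (39.8 to 54.0) than in the 4 WT libraries (62.8 to 77.5) at that age, as were 3.25% of genes, with a difference of -0.56 ± 0.34 (adjusted p = 0.639). At 2 years 0 of 10 were called, against 1.42% of genes, and Hoxa5 and Hoxa7 had an unadjusted p under 0.05. Hoxa5 at 2 years was higher in all 5 KO libraries (928 to 1209) than in all 4 WT libraries (348 to 909), as were 3.66% of genes, and the difference was 0.77 ± 0.26 (adjusted p = 0.178). Hoxb8 at 1 year was at 1.97, 0.983, 8.50 and 0.378 in KO and at 20.0, 6.11, 16.3, 24.8 and 18.9 in WT, overlapping by 1 library. Its difference was -2.50 ± 0.86 (adjusted p = 0.192).

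GF against WT, 0 of 10 members passed at 2 months, where 0.601% of genes were called and no member had an unadjusted p under 0.05 in limma. At 1 year 0 of 10 passed, against 4.96% of genes, and 2 members, Hoxa9 and Hoxb2, had an unadjusted p under 0.05. Hoxa9 was at 3478 and 3018 in GF, above all 5 WT libraries, with a difference of 0.30 ± 0.11 (adjusted p = 0.106). Hoxb2 was at 371 and 496 in GF, below all 5 WT libraries (600 to 988), and the difference was -0.88 ± 0.31 (adjusted p = 0.0962). With 2 libraries, 13.2% of genes were higher and 13.1% lower in GF without overlap. A fit of those 2 groups alone called Hoxb2 (adjusted p = 0.0363).

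**Figure D3:**
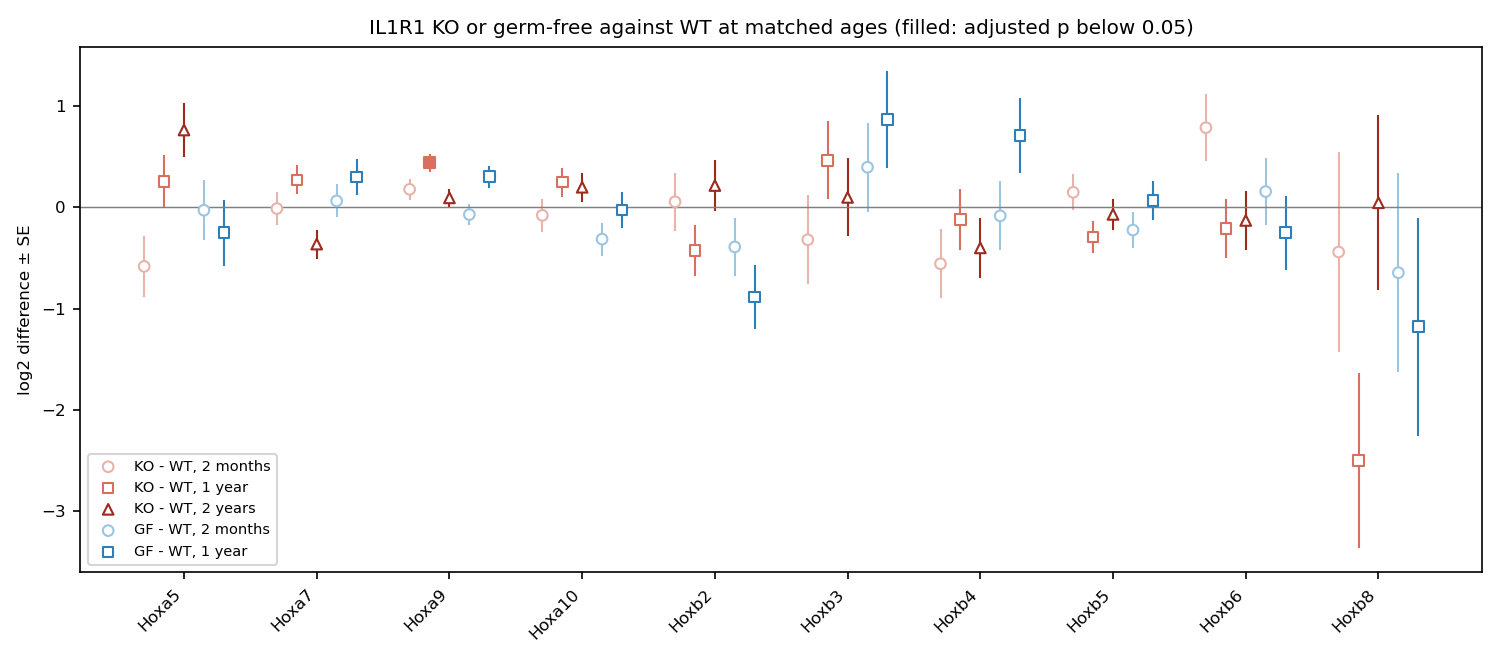
KO minus WT and GF minus WT difference (log2 of normalized count + 1, ± SE from limma) of the 10 members at matched ages. Filled symbols have an adjusted p below 0.05, which holds for Hoxa9 in KO against WT at 1 year only.

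Tests of whether the age change differed between KO or GF and WT gave 0 calls over the 30 tests of members, and 5 had an unadjusted p under 0.05 in limma. Those 5 were Hoxa5 and Hoxb6 in KO to 1 year and to 2 years, and Hoxa9 in GF. Over all tested genes, 0.0354% were called for KO to 1 year, 0.395% for KO to 2 years and 0% for GF. Hoxa5 and Hoxb6 differed in opposite directions, 1.35 and -0.92 to 2 years. An age change that passed in WT and not in KO, as for Hoxb6, is therefore not shown to differ between them.

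Neighbours of the members in the HoxB cluster changed with age as well. Of the 29 other Hox genes, 11 were tested, and 3 rose and 0 fell in WT at 1 year. Their median was 0.17, beside 0.01 for all tested genes, of which 10.7% were called. Hoxb9 was at 52.1, 25.3, 24.4 and 18.3 in WT at 2 months and at 138, 177, 203, 109 and 110 at 1 year. These groups did not overlap, as for 6.89% of all tested genes on the higher side. Hoxb9 rose by 2.32 ± 0.36 at 1 year (limma adjusted p = 6.2e-05) and by 2.10 ± 0.38 at 2 years (adjusted p = 0.000636), and both calls held in all other settings. In GF at 1 year Hoxb9 rose by 2.35 ± 0.49 (adjusted p = 0.00692), a call lost in 3 of 15 settings: with only the groups compared (adjusted p = 0.283) and without GF 1 year replicate 1 (0.116) or GF 2 months replicate 3 (0.0530). Hoxb7, next to Hoxb6, rose by 1.92 ± 0.63 in WT at 1 year (adjusted p = 0.0459) and by 3.44 ± 0.85 in GF (adjusted p = 0.0292), where 1 of the 3 young libraries, replicate 2, was at 0. Both Hoxb7 calls were lost in some settings, 12 of 19 for WT and 4 of 15 for GF. Without that library at 0 the GF difference was 2.10 ± 0.71 (adjusted p = 0.121), and without the 6 libraries high in Mpo, which leaves it as the only young GF library, it was 6.11 ± 0.72 (adjusted p = 9.1e-06). In WT at 2 years the Hoxb7 difference was 2.00 ± 0.66 (adjusted p = 0.0737), and without the 6 libraries high in Mpo it passed at 2.57 ± 0.51 (adjusted p = 0.00337). GF against WT at 2 months, Hoxb7 differed by -1.73 ± 0.71 (adjusted p = 0.413), and without those 6 libraries by -3.83 ± 0.72 (adjusted p = 0.00513), again with the GF library at 0 alone. Hoxc6, at 0 to 47.9 normalized counts, rose by 2.32 ± 0.76 in WT at 1 year (adjusted p = 0.0487), lost in 13 of 18 settings. Without WT 2 months replicate 4 it was 1.49 ± 0.74 (adjusted p = 0.255), and without the 6 libraries high in Mpo 1.76 ± 0.79 (adjusted p = 0.220). In KO, 0 of the 11 were called at 1 year or at 2 years against 2 months, beside 2% and 8.02% of all tested genes. Hoxb7 passed in KO at 2 years with a pseudocount of 5 (1.65 ± 0.49; limma adjusted p = 0.0338) and with the granule covariate (2.40 ± 0.61; adjusted p = 0.0144). Hoxb9 passed there without KO 2 months replicate 2 (1.58 ± 0.43; adjusted p = 0.0238). Along the HoxB cluster from Hoxb5 to Hoxb9, the 5 genes had positive WT differences at both ages, and of these Hoxb8 did not pass at either. Hoxb2 also had positive WT differences (0.52 and 0.29, not called), whereas Hoxb3 and Hoxb4 were negative at 1 year and positive at 2 years. Hoxa2, Hoxa3, Hoxa4, Hoxa6, Hoxb1, Hoxc5 and Hoxc9 passed in no comparison.

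Some cofactors of Hox proteins rose with age. Of the 9 listed TALE genes, 8 were tested. Pbx3, a Hoxa9 cofactor in leukaemia, was at 240 to 516 in WT at 2 months, 739 to 825 at 1 year and 605 to 1241 at 2 years. It rose by 1.17 ± 0.27 (limma adjusted p = 0.00419) and 1.33 ± 0.28 (adjusted p = 0.00313), and in GF by 2.05 ± 0.36 (adjusted p = 0.00121). Pbx3 was not called with age in KO. The WT calls of Pbx3 held in all other settings, whereas the GF call was lost in 2 of 15. Without the 6 libraries high in Mpo the GF difference was 1.27 ± 0.34, with replicate 2 as the only young GF library. Meis3 rose in WT at both ages and in KO at both, by 1.01 to 1.41. Its calls were lost in 2 of 19 settings for WT at 1 year, 4 of 18 for WT at 2 years and 12 of 18 for KO at 1 year, and held in all 19 for KO at 2 years. The KO 1-year difference of 1.11 ± 0.30 was 0.65 ± 0.29 without KO 2 months replicate 1 (limma adjusted p = 0.402). It was 0.90 ± 0.33 without the 6 libraries high in Mpo, with replicate 2 as the only young KO library. Meis1, the most abundant of them and a partner of Hoxa9 in HSCs and leukaemia, stayed between 15622 and 19616 in all libraries and passed in no comparison, nor did Kmt2a.

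**Figure D4:**
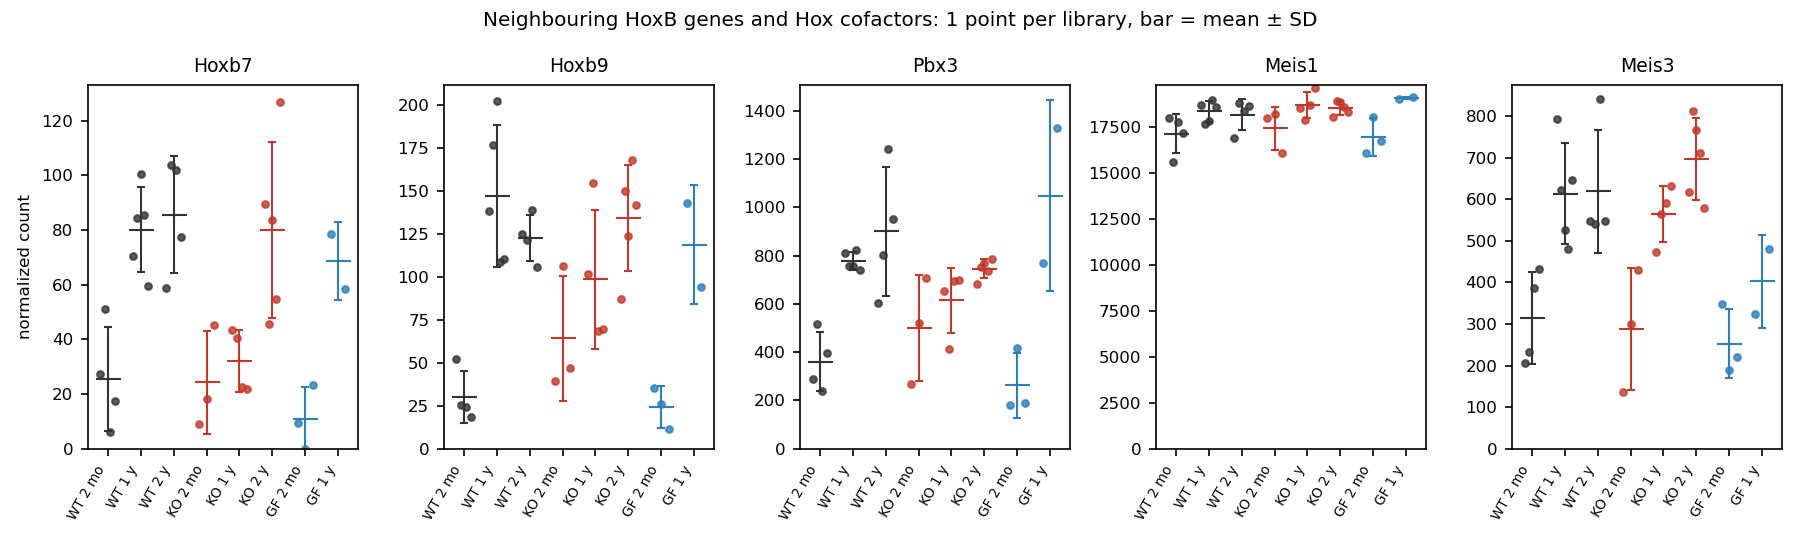
Normalized count (vertical axis, linear from 0) of Hoxb7, Hoxb9 and the TALE cofactors Pbx3, Meis1 and Meis3 in the 30 libraries by group. Points are libraries and bars the group mean ± SD. Hoxb9 and Pbx3 are above their WT 2-month range in every older WT library (6.89% of tested genes at 1 year, 5.31% at 2 years).

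Markers of other cells differed between the same groups. In WT at 1 year against 2 months, where Hoxb6 and Hoxb5 rose and Hoxa9 fell, 5 of 9 HSC markers were called higher, 6 of 10 neutrophil markers lower and 4 of 9 erythroid markers lower. Of all tested genes, 10.7% were called there, in either direction. The neutrophil sum was 5195 to 37931 normalized counts in WT at 2 months, 43.0 to 1823 at 1 year and 390 to 40784 at 2 years. The erythroid sum was 6822 to 8879 at 2 months, 1451 to 3975 at 1 year and 2638 to 8158 at 2 years. Both sums were without overlap between 2 months and 1 year and overlapped between 2 months and 2 years, and their part in the changes of the members was not tested. Of the other lists in that comparison, 1 of 8 monocyte, 1 of 6 T and NK cell and 0 of 5 mast cell markers were called lower. The summed level of the 6 listed megakaryocyte and platelet markers was 12132 to 15294 normalized counts in WT at 2 months, 18934 to 22478 at 1 year and 19810 to 22027 at 2 years. In KO it was 10278 to 18632, 12011 to 17029 and 15419 to 22464 at those ages, and in GF 10243 to 13164 and 19716 to 23188. Against 2 months, 1 of the 6 was called higher in WT at 1 and 2 years, beside 10.7% and 5.55% of all tested genes. In KO, 1 was higher at 1 year (2% of genes), and 2 were higher and 1 lower at 2 years (8.02%). In GF, 2 were higher at 1 year (2.1%). No marker of that list was at 0 in a whole group, and its part in the rise of Hoxb6 and Hoxb5 was not tested. The sum of 5 of 6 listed primary granule markers, Mpo among them, was 7312 to 116524 in WT at 2 months and 13397 to 16329 at 1 year. Of these 5, 1 was called higher and 0 lower in WT at 1 year, although their median log2 difference was -4.17. The counts were also 1 higher and 0 lower in WT and in KO at 2 years against 2 months. The shares of all tested genes called there were 5.55% and 8.02%. The granule covariate averaged all 5. Within the 10 libraries of 2-month mice, Hoxb6 was at 32.1 to 135 in the 6 high in Mpo and at 64.2 to 138 in the other 4, and Hoxa9 at 2865 to 3971 and 3044 to 3570. With the level of the granule markers as a covariate, Hoxb6 was still called in WT at 1 year, whereas Hoxb5 (0.53 ± 0.17; limma adjusted p = 0.0573) and Hoxa9 (-0.29 ± 0.10; adjusted p = 0.0690) had nearly the same differences and did not pass. B cell markers (8 of 8) summed to 9426 to 78099 in WT at 2 years and 1437 to 7144 at 2 months, and their part in the 2-year differences was not tested.

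Within groups, correlations between members were mostly weak. Over the 45 pairs of members, the correlation of residuals from the group means over 30 libraries had a median of 0.15 and ran from -0.31 to 0.70. A single pair passed with both coefficients, Hoxa5 and Hoxb2, with Pearson's r of 0.70 (permutation p = 0.00072, adjusted over the pairs 0.0324) and Spearman's rho of 0.73 (permutation p = 0.00033, adjusted 0.0148). Leaving out the 2 libraries farthest from the median of Hoxa5 gave r of 0.72. The 6 HoxA pairs had a median r of 0.21 and the 15 HoxB pairs 0.11. Removing the group means takes up degrees of freedom that the permutation does not count, so these p-values are approximate.

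Genes outside the clusters with the most similar pattern over the 30 libraries were found by Pearson's r of log2 values, as a description over libraries that share groups and depth. Hoxb6 was closest to Agtr1a (r = 0.88), an angiotensin receptor, and least like Vim (r = -0.81). Within groups these were 0.71 and -0.21. Hoxb5 was closest to Ctso (0.83) and Dsg2 (0.81) and least like Ucp2 (-0.82), and within groups these were 0.44, 0.45 and -0.58. Hoxa9 was closest to Ctla2a (0.78) and Cox4i1 (0.77) and least like Krt80 (-0.79), with 0.47, 0.76 and -0.50 within groups. Hoxb2 was closest to Lmo2 (0.82), a stem cell transcription cofactor, and Mcur1 (0.81), with 0.83 and 0.72 within groups. Hoxa5 was closest to Zfand5 (0.83) and Zbtb11 (0.81), with 0.79 and 0.70 within groups. For Hoxa7, Hoxa10, Hoxb3, Hoxb4 and Hoxb8, the closest genes were Iqgap2 (0.75), Fam107b (0.66), Jade2 (0.78), Gabbr1 (0.80) and Il1rapl1 (0.69), and their values within groups were 0.71, 0.51, 0.84, 0.80 and 0.56.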

How the data were processed

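Smart-seq2 libraries were sequenced from 1 end (100 bases, about 20 M reads stated), per the labels' protocols. The authors deposited a signal for each gene, normalized counts that are not whole numbers. Salmon 1.2.0.0, DESeq2 1.26.0, cutadapt 2.10 and FastQC 0.11.9 are named in the submitters' processing notes, as is the build GRCm38 (mm10). In each library 10.9% to 18.4% of low values (above 0 and below 20 normalized counts) were whole multiples of 1 read within 0.001. Whole reads were therefore not recovered, and no count model was run.

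Tests used limma 3.58.1 in R 4.3.3 (tables and figures: Python 3.11.15, pandas 2.3.3, scipy 1.17.1, matplotlib 3.10.9). Genes with at least 10 in at least 3 libraries (16958 genes) entered as log2(normalized count + 1). The model had 1 mean for each group, used all 30 libraries, and moderated variances with a trend and robust settings. There were 15 comparisons, two-sided, with Benjamini-Hochberg adjustment over all tested genes and a threshold of 0.05. The procedure was tested on simulated data. Pair correlations used 100000 permutations.

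Groups follow the titles. KO 1 year replicate 1, whose age label says 2 months, was kept at 1 year and moved in an alternative. Alternatives varied pseudocount, filter, scaling, moderation, replicate block, a granule marker covariate, the libraries fitted and each library in turn. The members and lists were chosen with earlier results of these data known, and no list or comparison is independent of them. All members, all tested Hox genes, fixed cofactors, up to 4 called genes per list and comparison with the smallest p, and the 2 most and 1 least correlated genes per member are named, except that a few genes and sequences are not reported here. Gene models are GENCODE M21, matched by identifier for 35493 of 35727 genes.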

Additional observations from a re-analysis of the deposited data

Results flagged for a closer look

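Among 80 groups of 4 or 5 libraries over 16 genes (the members, Hoxb7, Hoxb9 and 4 cofactors), 8 held a library set apart from the rest of its group by most of the group's range. Chance does this in about 1 group in 20. Hoxa7 was at 1024 in KO 1 year replicate 1, against 1159 to 1182 in the others, and at 1295 in KO 2 years replicate 1, against 781 to 910. Hoxa9 was at 3003 in KO 1 year replicate 4, against 3750 to 3803. WT 1 year replicate 1 stood high for 2 members, with Hoxb3 at 173 against 65.4 to 87.9 and Hoxb5 at 542 against 428 to 450. WT 2 years replicate 3 stood high for Hoxb8, at 55.1 against 4.02 to 11.9, and for the cofactor Meis3, at 841 against 541 to 549. Pbx3 was at 414 in KO 1 year replicate 2, against 655 to 697.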

How the results depend on the processing

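The counts of called members were recomputed under the alternatives. Fits without the 6 libraries high in Mpo kept replicate 2 as the only young library of KO and of GF. No called result of a member, Hox gene or cofactor changed sign. In KO at 2 years against 2 months (2 members, 1360 genes in all), the count was 0 with no filter on low values, with the granule covariate and without the 6 libraries high in Mpo (468 genes in all), and 1 without trend and robust moderation, with only the groups compared and with KO 1 year replicate 1 placed at 2 months (710 genes). In WT at 2 years (1 member, 941 genes) it was 2 without trend and robust moderation and without the libraries high in Mpo, and 0 with only the groups compared (350 genes). In WT at 1 year (3 members) it was 1, Hoxb6, with the granule covariate. In GF at 1 year against 2 months (1 member, 356 genes) it was 0 with only the groups compared (15 genes) and without the libraries high in Mpo. For GF against WT at 1 year it was 1 in place of 0 with only the groups compared. The cause of these changes was not tested. Leaving out each library in turn gave 2 to 3 members in WT at 1 year, 1 to 2 in WT at 2 years, 0 to 2 in KO at 2 years and 0 to 1 in GF, and left the other 11 counts as they were. Over all tested genes, the calls ran from 990 (without the libraries high in Mpo) to 1834 in WT at 1 year (1818 as reported), 47 to 362 in KO at 1 year (340), 19 to 74 for KO against WT at 2 months (69), 129 to 371 at 1 year (221) and 158 to 293 at 2 years (241). For GF against WT they ran from 38 to 179 at 2 months (102) and 418 to 969 at 1 year (841), and for the 3 differences of age changes from 5 to 38, 0 to 111 and 0 to 101 (6, 67 and 0). Of 215 uncalled results, 13 of 4206 values passed under an alternative.

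The replicate numbers gave no clear pairing of the libraries. The mean correlation of residuals was 0.01 over 88 same-numbered pairs and 0.00 over 302 others. It exceeded 0.1 in 5 of the 88 and in 2 of the 302, and 11 of 30 libraries correlated best with their own number. Whether some of the libraries were paired was not settled by these values. With the number as a replicate block, the members called were 1 (Hoxb6) in WT at 1 year, 0 in KO at 2 years and 0 in GF at 1 year.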

Other observations

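Ezh1, a Polycomb methyltransferase of quiescent cells, rose in all 5 comparisons of an older group with 2 months, by 0.55 ± 0.13 (SE) in KO at 1 year (limma adjusted p = 0.0185) to 0.99 ± 0.12 in KO at 2 years (adjusted p = 2.1e-06). Of the 17 Polycomb and demethylase genes tested, 1 rose and 2 fell in WT at 1 year, with a median of -0.06 beside 0.01 for all genes. In that comparison 10.7% of all tested genes were called. Phc2 (-0.74) and Kdm6b (-0.80) were the 2 that fell. Kdm6b passed in the other direction in KO at 2 years against 2 months (0.92 ± 0.28; limma adjusted p = 0.0385). Of 13 genes of the MLL complex and its elongation partners, 1 rose in WT at 1 year, Mllt3 (0.46 ± 0.09; adjusted p = 0.001), and 2 rose in KO at 2 years, Dot1l (2.06) and Aff4 (1.06). The shares of all tested genes called in these 2 comparisons were 10.7% and 8.02%.

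Of 10 genes known from Hoxa9 work as its targets, 1 rose and 3 fell in WT at 1 year. Among all tested genes, 10.7% were called there. The anti-apoptotic gene Bcl2 rose by 0.69 ± 0.11 (limma adjusted p = 6.8e-05), while Flt3 (-1.46), Sox4 (-0.54) and Cd34 (-0.49), genes of early progenitors, fell. In KO at 2 years 3 rose and 3 fell, where 8.02% of all tested genes were called. Bcl2 (0.67), Pim1 (0.99) and Id2 (0.93) were higher and Sox4 (-0.89) was lower among those with the smallest p. The list's median was 0.02 in both comparisons, beside 0.01 and 0.00 for all genes. Most of these genes have other known regulators, and the part of Hoxa9 in their values was not tested.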
